A study of Rattus norvegicus with 4 samples.

Results

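Lysosomal hydrolases and their activator proteins were examined in NR8383 cells, an alveolar macrophage line of the rat whose founder cells were washed from a normal lung. The genes were chosen by name: 32 enzymes and activators were listed, cathepsins left out, and a gene was taken where the array's own gene name was its symbol or an older alias. This found 30 of the 32 genes, out of 18853 named genes on the array. Gla and Sgsh were not found by gene name; each has 1 probe that carries a transcript identifier as its name and the gene only in its description, and they are given apart from the 30.

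RNA of 4 samples, described as biological replicates, was hybridised with Cy3 label to 1-colour Agilent arrays. All 4 belong to the same control group, Control_sub, kept in submerged culture. The cells had been passaged 20 times and grew, partly adherent and partly floating, in DMEM with heat-inactivated fetal bovine serum (15%), L-glutamine (2 mM), penicillin, streptomycin and amphotericin B. The submitters' texts differ on timing (submerged for 4 h in one, seeded for 48 h in another), so values are given without a duration. The labels do not say that the replicates came from separate cultures, so the spread between them may be partly technical, and 1 cell line stands for alveolar macrophages here.

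Lysosomal hydrolases are acid-active enzymes that take apart glycolipids, glycosaminoglycans, glycoproteins, lipids, proteins and nucleic acids delivered by endocytosis, phagocytosis and autophagy. Most are made in the endoplasmic reticulum, tagged with mannose 6-phosphate and carried to lysosomes by mannose 6-phosphate receptors, and several need small activator proteins that lift lipids to the enzyme. Macrophages carry large amounts of these enzymes, and inherited loss of many of them causes a storage disease in which macrophages fill with undigested substrate.

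Of the 30 genes, 29 had a probe well above background on all 4 arrays, and Arsb had none on any array. Across all named genes on the array 54.9% were detected on all 4. The level of a gene is the log2 of its probe's signal minus the log2 of that array's 75th percentile, so 0 is the 75th percentile. The median level of the 29 detected genes was 1.04, against -0.85 over all 10350 detected genes. Of the 29, 21 had a mean level above 0, against 37.3% of all detected genes. The 75th percentile lay between 958 and 1489 fluorescence units over the arrays, and no spot was saturated. Signal also depends on the probe's sequence, so levels of different genes were not ranked.

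All 8 macrophage markers looked at, among them Cd68, Csf1r, Spi1 and Tyrobp, were detected on all 4 arrays. No marker of 8 of lung epithelium was, nor 4 of 6 of fibroblasts, 6 of 7 of neutrophils and 4 of 6 of T and B cells. The exceptions were Col1a2 and Dcn, Mpo, and Cd3d and Cd79a, with mean levels between -5.46 and -2.24. Some others were detected on fewer arrays: the epithelial Nkx2-1, Sftpa1 and Scgb1a1 on 2 and Sftpc on 1, and the neutrophil S100a8 on 3. Nkx2-1 reached -3.90 on replicate 3. Of the macrophage markers, Cd14 averaged -2.91, within the range of the exceptions above, and Csf1r was detected by 1 of its 2 probes.

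**Figure D1:**
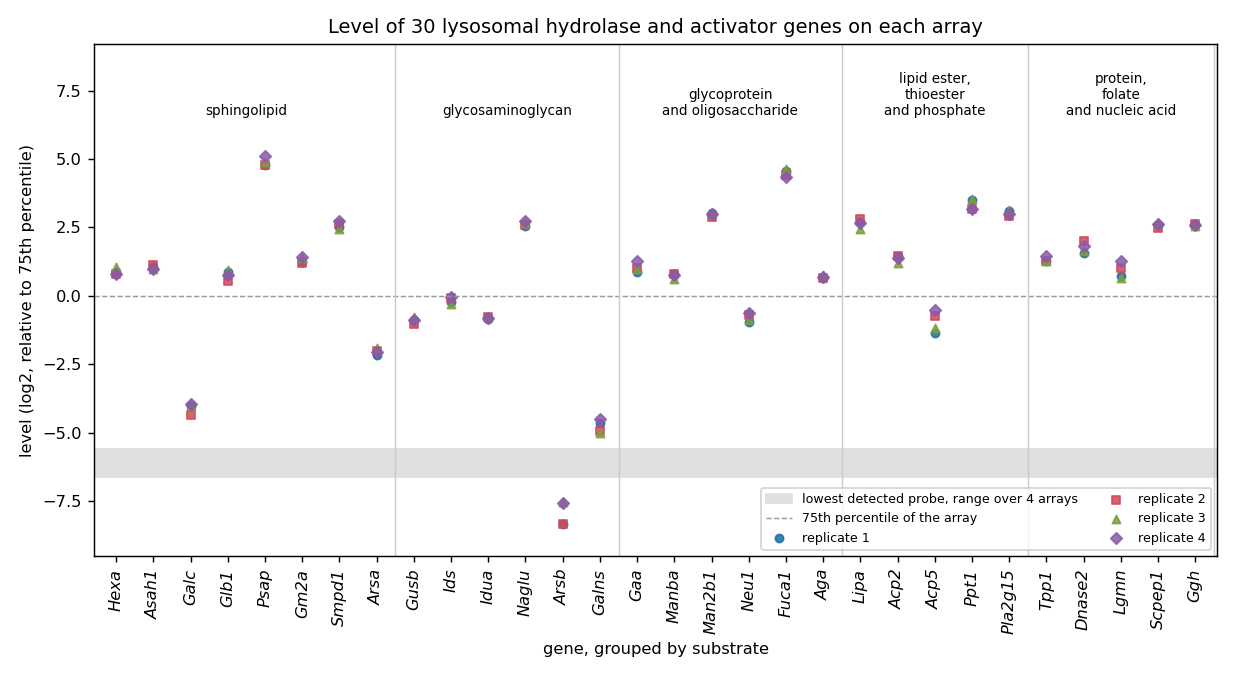
Level of each of the 30 genes found by name (log2, relative to the array's 75th percentile) on the 4 arrays, grouped by substrate. Points are single arrays, the dashed line is the 75th percentile and the grey band is the range over arrays of the lowest detected level; Arsb alone lies below the band, and Galns and Galc lie nearest above it.

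The promoters of some of these genes hold the E-box read by TFEB and TFE3, the transcription factors known for inducing lysosomal genes through the CLEAR element. RefSeq windows on GRCr8, from 250 bases before to 50 after the annotated start, were available for 23 of the 32 listed genes; Arsa, Arsb, Asah1, Dnase2, Ggh, Hexa, Ppt1, Psap and Scpep1 had none in the table used. The core CACGTG, searched on both strands, was in 5 of the 23 (21.7%), and each of these also held the longer GTCACGTG, which contains it. Over all 27457 genes of the table the shares were 7.08% for CACGTG and 2.09% for GTCACGTG, and over the detected genes with a window 9.84% and 4.14%. Among genes that modify and deliver hydrolases, 5 of 11 genes with a window held CACGTG (45.5%) and 4 held GTCACGTG (36.4%). Among other soluble hydrolases 2 of 11 held CACGTG (18.2%) and 0 held GTCACGTG. Among lysosomal transcription factors and their mTORC1 control genes 2 of 9 held CACGTG (22.2%) and 1 held GTCACGTG (11.1%). The full palindromic CLEAR core, which extends GTCACGTG by AC and so contains both shorter motifs, was in 1 window, that of Galc, against 0.280% of all genes and 0.637% of detected genes. A match is a run of letters and not a measured binding site. The motifs were searched for because they are known from lysosomal genes, so a larger share here is no independent result. The stretches are shown, from RefSeq, because this sequence was not used to choose the genes. Capitals mark the motif on either strand, and each line reads along the gene's own strand. No stretch runs past the annotated start except for the last bases of the Idua motif.
Galc, chr6:123245560-123245601, minus strand: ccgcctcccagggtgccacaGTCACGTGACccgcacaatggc
Glb1, chr8:122963596-122963643, plus strand: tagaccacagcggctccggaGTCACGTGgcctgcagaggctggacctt
Gaa, chr10:105028268-105028315, plus strand: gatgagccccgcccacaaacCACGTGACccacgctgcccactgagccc
Sgsh, chr10:105112019-105112066, minus strand: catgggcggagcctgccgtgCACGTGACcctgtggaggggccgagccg
Idua, chr14:1190926-1190953, minus strand: ttgtccaggcctggcgaatgGTCACGTG

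The motif began 22 bases before the start in Galc, 37 in Sgsh, 67 in Gaa, 102 in Glb1 and 5 in Idua. These genes had no common level: the signal of Gaa, an acid alpha-glucosidase that breaks down glycogen, was above the 75th percentile on every array, and that of Galc was below it on every array.

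Each gene rested on 1 probe except Ids, which had 2. The probe was printed on 1 spot for 23 genes, on 2 for 3 and on 10 for 4 (Man2b1, Fuca1, Dnase2 and Scpep1). The deposited rn4 coordinates of 4 probes span more than the 60 bases of the probe, so these probes are not contiguous in the genome. Of these, 3 are shown because they read across a gap in the genome and belong to genes at both ends of the results: Lgmn with the second-largest spread, Aga with the third-smallest and Galc with a dim signal.
Galc, chr6:122379881-122387949, minus strand: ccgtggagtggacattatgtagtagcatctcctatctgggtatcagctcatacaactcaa
Aga, chr16:41388201-41389535, minus strand: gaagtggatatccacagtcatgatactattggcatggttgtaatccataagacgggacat
Lgmn, chr6:126669400-126669708, minus strand: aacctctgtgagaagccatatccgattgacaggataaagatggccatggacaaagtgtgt

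All 8 sphingolipid genes found by name were detected. Hexa, the alpha subunit of beta-hexosaminidase, which removes a sugar from GM2 ganglioside, lay at 0.87, 0.82, 1.05 and 0.80 on replicates 1 to 4. Its activator Gm2a lay at 1.24, 1.197, 1.39 and 1.42. For Hexa replicate 3 was highest, whereas Gm2a was low on replicates 1 and 2 and high on 3 and 4.

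Psap, the precursor of the 4 saposins, small activators that several of these enzymes require, had levels of 4.80, 4.77, 4.89 and 5.11. Asah1, acid ceramidase, lay at 1.04, 1.12, 0.98 and 0.997, one of the narrowest spreads in the set (SD 0.060). Smpd1, acid sphingomyelinase, averaged 2.58 ± 0.13 (SD, n = 4) and Glb1, beta-galactosidase, 0.78 ± 0.17. Arsa, the sulfatase of myelin sulfatide, averaged -2.03 ± 0.11. Galc, which cleaves galactosylceramide, was dim at -4.03, -4.37, -4.02 and -3.93, with replicate 2 lowest. Its signal averaged 2.10 log2 units above the lowest detected probe of each array. The alpha-galactosidase gene Gla, through its probe named by description, was detected on all 4 arrays at -0.15, -0.0032, -0.38 and -0.07.

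Of the 6 genes for glycosaminoglycan breakdown, 5 were detected and 4 of those had mean levels below the 75th percentile. Over all detected genes only 37.3% had a mean level above it. Gusb, beta-glucuronidase, lay at -0.87, -1.01, -0.79 and -0.88. Idua, alpha-iduronidase, had the smallest spread of all detected members, at -0.83, -0.78, -0.77 and -0.79 (SD 0.023). Both cleave terminal uronic acids from these chains, and neither spanned more than 1.17-fold over the arrays.

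Ids, the iduronate sulfatase, lay at -0.22, -0.07, -0.31 and -0.03 on its brighter probe. Its other probe, for another predicted transcript, lay at -2.65, -2.36, -2.85 and -2.86. Both probes were detected on every array and were lower on replicate 3 than on replicate 2, but replicate 4 was highest on the first and lowest on the second. Naglu, which removes N-acetylglucosamine from heparan sulfate, was the only member of this class above the 75th percentile, with a mean of 2.64 ± 0.08 (SD, n = 4).

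Galns, a sulfatase for keratan sulfate, was dim, and Arsb, a sulfatase for dermatan sulfate, was not detected. Galns lay at -4.64, -4.93, -5.00 and -4.51, on average 1.42 log2 units above the lowest detected probe of each array. Arsb, whose single probe was not well above background on any array, read -8.32, -8.32, -7.54 and -7.56. The lowest detected probes lay between -6.62 and -5.59, so every Arsb reading was under them. Sgsh, the heparan N-sulfatase, was detected on all 4 arrays by its probe named by description, at -5.22, -5.89, -5.27 and -5.29, which is 0.77 log2 units above the lowest detected probe on average. Whether the probes of Arsb, Galns and Sgsh hybridise well was not tested.

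All 6 glycoprotein and oligosaccharide enzymes were detected. Gaa lay at 0.88, 1.04, 0.97 and 1.26, highest on replicate 4. Manba, beta-mannosidase, lay at 0.80, 0.79, 0.60 and 0.77, with replicate 3 apart from the others. Aga, which splits the bond between asparagine and sugar, lay at 0.66, 0.67, 0.75 and 0.67, again with replicate 3 apart but on the high side.

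Man2b1, alpha-mannosidase, had one of the narrowest spreads, at 3.02, 2.88, 3.04 and 2.99. Fuca1, alpha-fucosidase, averaged 4.48 ± 0.14 (SD, n = 4) and the sialidase Neu1 -0.78 ± 0.15. The 10 spots of Man2b1 gave a mean spot SD of 0.053 within an array, and the SD between arrays came to 4.21 standard errors of the 10-spot average. For Fuca1 that ratio was 13.7. The median of that ratio over all 1045 probes on 10 spots was 5.14, so Man2b1 lay below it and Fuca1 above. Spot noise holds no labelling or hybridisation error.

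Enzymes for lipid esters, thioesters and phosphates were detected in 5 of 5 cases. Lipa, the acid lipase that frees cholesterol from its esters, lay at 2.68, 2.79, 2.43 and 2.65. Acp2, a lysosomal acid phosphatase, lay at 1.45, 1.44, 1.19 and 1.39. Replicate 3 was lowest for both.

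Pla2g15, the lysosomal phospholipase A2, averaged 3.04 ± 0.08 (SD, n = 4). Ppt1, which removes palmitate from proteins, lay at 3.50, 3.17, 3.53 and 3.18. Its values on replicates 1 and 3 lay close together, as did those on 2 and 4, and the 2 pairs did not overlap. Acp5, the tartrate-resistant acid phosphatase of osteoclasts and activated macrophages, had the largest spread of the 29 genes. It lay at -1.37, -0.72, -1.16 and -0.50, a 1.83-fold range, with replicates 2 and 4 high and 1 and 3 low. Its SD between arrays was 0.40.

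The class acting on proteins, folates and nucleic acids had 5 of 5 members detected. All 5 had mean levels above the 75th percentile, against 37.3% of all detected genes. Tpp1, tripeptidyl peptidase, lay at 1.29, 1.27, 1.27 and 1.45, so replicate 4 stood apart. Scpep1, a serine carboxypeptidase, averaged 2.59 ± 0.09 (SD, n = 4). Ggh, which trims glutamates from folates and antifolates, lay at 2.62, 2.64, 2.55 and 2.60, an SD of 0.038.

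Lgmn, legumain, an asparaginyl endopeptidase that matures other lysosomal proteases, lay at 0.73, 1.03, 0.66 and 1.26, a 1.52-fold range and the second-largest SD. Dnase2, the acid DNase that degrades DNA of engulfed cells, lay at 1.56, 1.99, 1.63 and 1.81. As for Acp5, replicates 2 and 4 were above 1 and 3 for both genes. Dnase2 had an SD of 0.19 (adjusted p = 0.83 in the limma test of its variance).

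**Figure D2:**
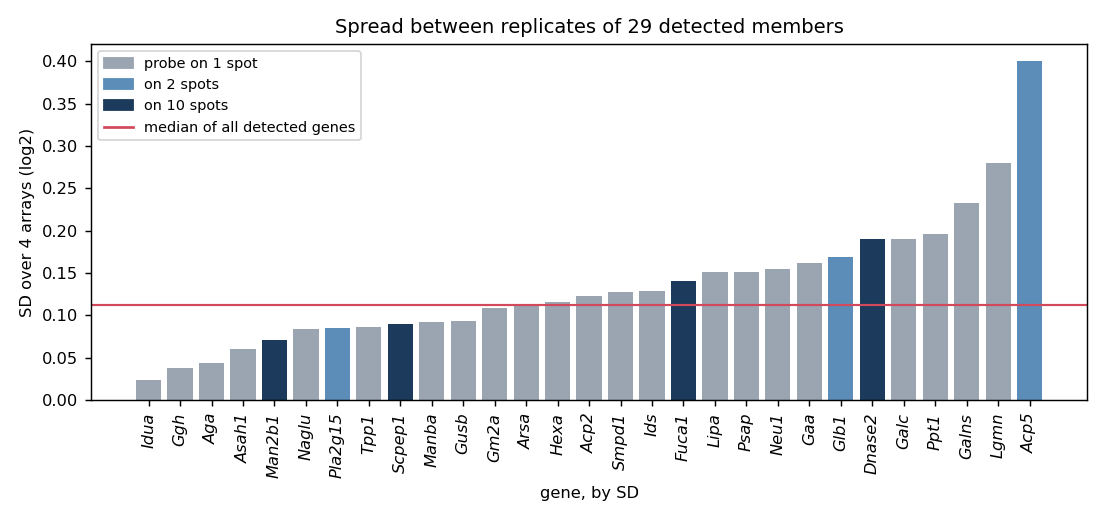
SD of the level over the 4 arrays (log2) for each of the 29 detected genes, shaded by the number of spots per probe; the red line is the median over all detected named genes (0.11). Acp5 (0.40) and Lgmn (0.28) stand at the right end and Idua (0.023) at the left.

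The spread of these genes between replicates was close to that of all detected genes. The median SD of the 29 was 0.12, against 0.11 over all detected genes, and 16 of the 29 had an SD above that median. The highest array was under 1.5-fold above the lowest for 27 of the 29, as it was for 89.5% of all detected genes. The variance of each probe over the 4 arrays was tested against that of probes of the same signal with limma, with Benjamini-Hochberg adjustment over 19400 probes. None of the 29 genes passed an adjusted p of 0.05, against 0.145% of all detected genes, and 2 had an unadjusted p under 0.05, against 5.67%. These were Acp5 (adjusted p = 0.27 in limma) and Lgmn (adjusted p = 0.45 in limma). With normexp background correction Acp5 passed (adjusted p = 0.045 in limma), and Acp5 and Lgmn both passed with no filter on dim probes. Over the alternatives for background, scale, outlier spots and left-out replicates, the adjusted p in limma ran from 0.045 to 0.85 for Acp5 and from 0.16 to 0.85 for Lgmn.

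Arrays were compared next over the 29 genes, with no test. The median deviation from a gene's own mean was -0.01, -0.02, -0.00026 and 0.03 on replicates 1 to 4, against 0.01 or less in size for all detected genes on each array. Scaling each array on its 75th percentile holds such medians near 0, and with spike-in scaling they were 0.39, 0.36, -0.20 and -0.56. Replicate 4 was the highest array for 12 of the 29 genes (41.4%) and the lowest for 2 (6.90%). Over all detected genes those shares were 32.1% and 28.3%. Replicate 1 was highest for 2 genes (6.90%), against 19.8% of all detected genes. Replicate 3 was highest for 11 genes (37.9%, against 22.7%) and lowest for 10 (34.5%, against 27.9%).

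**Figure D3:**
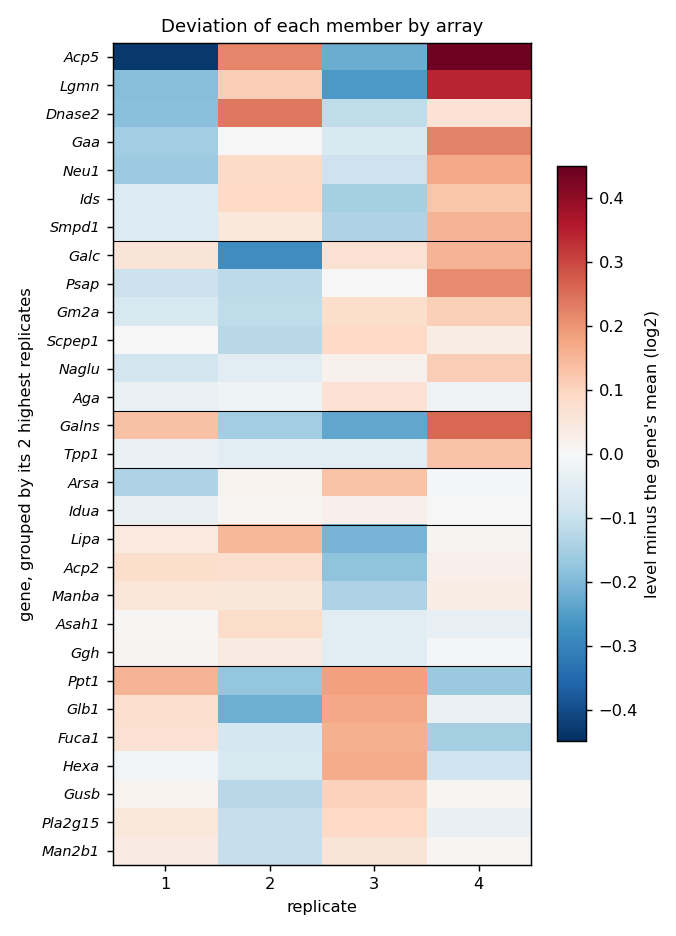
Level minus the gene's own mean (log2, colour) for each of the 29 detected genes on replicates 1 to 4, in blocks by the 2 replicates on which a gene was highest and by falling SD within a block. The top block (Acp5 to Smpd1) is red on replicates 2 and 4 and the bottom block (Ppt1 to Man2b1) on 1 and 3, except that Gaa lies at its mean on replicate 2 and Hexa just under its mean on replicate 1.

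Which 2 arrays were highest differed between the genes, and 14 of the 29 fell into 2 opposite patterns. For 18 of the 29 the SD between arrays was below the scanner software's own error of the signal (median 0.144 log2 units). The median SD over all detected genes, 0.11, was below 0.144 too, so this is not particular to these genes. Of the 14, those below the error were Ids, Smpd1, Hexa, Gusb, Fuca1, Pla2g15 and Man2b1, so by this measure their order over the arrays is uncertain. That error was 0.144 for Lipa on 1 spot and for Fuca1 on 10, so it takes no account of averaging over spots. Against spot noise alone, which holds no labelling or hybridisation error, the SD was 13.7 (Fuca1), 4.21 (Man2b1) and 2.31 (Pla2g15) standard errors. Replicates 2 and 4 were the highest for 7 genes (24.1%), Acp5, Lgmn, Dnase2, Gaa, Neu1, Ids and Smpd1, against 18.7% of all detected genes. Replicates 1 and 3 were the highest for 7 others (24.1%), Ppt1, Glb1, Fuca1, Hexa, Gusb, Pla2g15 and Man2b1, against 14.3%. The first share is near that of all genes. The counts of 7 and 7 were the same with normexp, after quantile normalization, when arrays were scaled on their detected probes' median and with outlier spots kept, but both were 0 with spike-in scaling, which lowers replicates 3 and 4 against 1 and 2. No other pair of arrays was the highest for more than 6 genes, and the shares for these pairs were 22.1% (1 and 2), 12.1% (1 and 4), 12.2% (2 and 3) and 20.6% (3 and 4) over all detected genes.

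**Figure D4:**
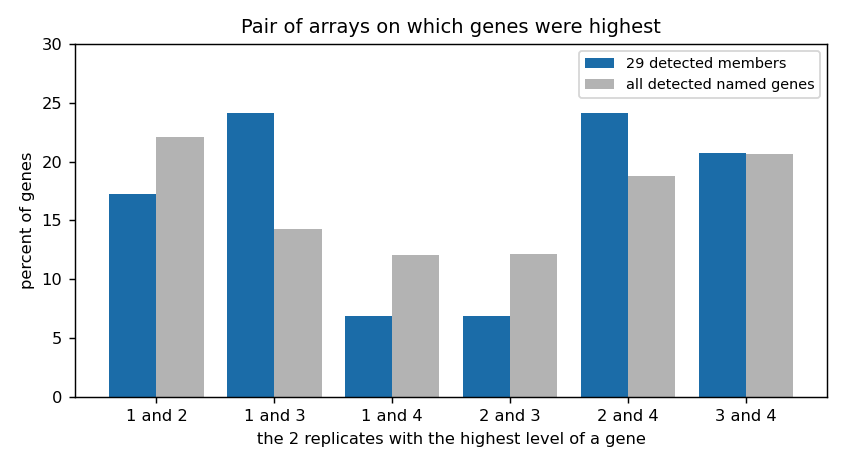
Percent of genes whose 2 highest arrays were each of the 6 possible pairs, for the 29 detected lysosomal genes (blue) and for all 10350 detected named genes (grey). The blue bars for 1 and 3 and for 2 and 4 both stand at 24.1%, above grey bars of 14.3% and 18.7%.

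Markers of osteoclasts, cells of the same lineage in which Acp5 is a defining gene, were read beside it. Of 9 such markers 7 were detected on all 4 arrays; the defining protease Ctsk was detected on no array and the fusion protein Dcstamp on 3. Replicates 2 and 4 were the highest for 5 of the 7, Calcr, Ocstamp, Atp6v0d2, Itgb3 and Mmp9, against 18.7% of all detected genes. For Calcr replicate 4 (0.162) was barely above replicate 1 (0.156). Ocstamp was dim, with 1 of its 3 probes detected, at -5.27, -5.19, -5.58 and -3.81. Nfatc1 was highest on 1 and 3, and Oscar on 1 and 2. The mean level of the 7 was -1.44, -1.28, -1.59 and -1.09 on replicates 1 to 4, so it too was higher on 2 and 4. Mmp9 lay at -1.66, -1.08, -1.98 and -1.30 (adjusted p = 0.34 in limma). Of the 8 macrophage markers, Csf1r and Tyrobp were highest on replicates 1 and 3, and Itgam and Cd14 on 2 and 4. Itgam lay at -1.42, -0.56, -1.59 and -0.03 (adjusted p = 0.065 in limma). Its range was 2.95-fold, wider than the 1.83-fold of Acp5. Osteoclast markers were thus not the only markers highest on 2 and 4. The part of these genes' shared pattern in the Acp5 and Lgmn values was not tested, and fewer cells of a kind cannot be told apart from less RNA per cell in bulk samples.

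Genes that serve the same pathway were detected about as often as the hydrolases. Of 44 with a probe in 3 further lists, 42 were detected on all 4 arrays, and none passed the variance test, against 2 at an unadjusted p under 0.05 in limma. Their median level was 0.11 and their median SD 0.11. Of these genes, 21 of the 42 had an SD above the median of all detected genes.

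Among other soluble hydrolases 17 of 19 were detected. The sulfatase Arsk and the hyaluronidase Hyal1 were not well above background on any array. Hyal1 read -7.60, -8.05, -7.06 and -7.26, and Arsk -7.03, -6.52, -7.21 and -7.26. As for Arsb, each rests on 1 probe.

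All 12 genes for modification and delivery were detected. Sumf1, the enzyme that activates every sulfatase by converting a cysteine in its active site, lay at -0.13, -0.03, -0.03 and 0.02. Gnptab and Gnptg, subunits of the phosphotransferase that starts the mannose 6-phosphate tag, averaged 1.004 ± 0.11 and 0.82 ± 0.09 (SD, n = 4). Nagpa, which uncovers the tag, averaged -2.26 ± 0.02. The receptors for it were both present: M6pr averaged 3.81 ± 0.18, and Igf2r lay at 2.86, 3.05, 2.63 and 3.16 (adjusted p = 0.63 in limma). Igf2r was highest on the same replicates as Acp5 and Lgmn, as were 10 of the 42 genes of the 3 lists (23.8%), a share near the 18.7% of all detected genes.

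All 13 transcription factors and their control genes were detected. Tfeb averaged -1.98 ± 0.05 (SD, n = 4) and Tfe3 1.77 ± 0.07. Tfec, of the same family, averaged 0.73 ± 0.16. Mitf, another member, lay at 3.58, 3.33, 2.75 and 3.08, with replicate 3 lowest (adjusted p = 0.23 in limma). Its order over the arrays, 1 highest and 3 lowest, was not that of Acp5, Lgmn or Dnase2. The mTORC1 kinase gene Mtor averaged -3.03 ± 0.11 and the Rag GTPase Rragc 4.52 ± 0.06.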

How the data were processed

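The deposited values used were spot intensity from Agilent Feature Extraction 11.0.1.1, per the file headers and the submitters' processing notes: the processed signal, which that software had background-corrected and detrended but not normalized between arrays, and the mean and local background signals. Each array held 58717 spots that were not controls, for 45598 probes. The headers place the 4 arrays together on 1 slide, so no batch could be tested, and the number of arrays limits the precision.

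From these, processed signals were put on a log2 scale and centred on the 75th percentile of their array, outlier spots were left out and spots of a probe averaged. A probe was detected where over 0.5 of its spots were well above background. A gene's level is that of its brightest detected probe. Accessions, symbols and older symbols in a RefSeq table of GRCr8 named 22598, 3683 and 347 probes; 18970 stayed without a named gene. Coordinates of probes are those of the files, on rn4; no exon or UTR annotation was used.

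The variance test used R 4.3.3 and limma 3.58.1: residual variance over a robust, signal-dependent prior, an F test with Benjamini-Hochberg adjustment over 19400 detected probes. On simulated data with 19400 probes 200 probes were given a 4-fold, 8-fold or 16-fold SD. The test found 81.0%, 94.5% and 100% of them and made 8, 4 and 2 false calls. All other simulated probes had exactly the SD that the trend gives for their signal. Real probes also vary around that trend, so these shares cannot be carried over to the real arrays. There Itgam, with an SD of 0.74 against a prior SD of 0.11, had an adjusted p of 0.065 in limma. Python 3.11.15, pandas 2.3.3, numpy 2.4.6 and matplotlib 3.10.9 were used. The genes and lists were chosen with earlier results of these data known. All 32 genes are named; values on every array are given for those not detected, set apart, of largest or smallest SD, and the first of each class. Nagpa, M6pr, Igf2r, Mtor, Rragc, Tfec, Mmp9 and the examples among markers were singled out after their values were seen. Protein sequences were not used here, and some genes of the further lists and 1 probe sequence are not reported here. Alternatives are given in the closing section.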

Additional observations from a re-analysis of the deposited data

Results flagged for a closer look

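Dixon's ratio, the distance of an extreme array from its neighbour as a share of the whole range, passed its 95% critical value for 4 samples in 5 of 74 lysosomal genes. Chance alone sets apart about 1 case in 20, or 3.7 here. Replicate 3 stood apart for Manba (gap 0.876 of the range, lowest), Aga (0.836, highest) and Naaa (0.928, highest, 0.07 against -0.07 to -0.06 elsewhere). Replicate 4 was highest for Tpp1 (0.882), and replicate 2 was lowest for Sgsh (0.905).

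Outside the genes found by name, the probes of Gla and Sgsh were well above background on all 4 arrays, with mean levels of -0.15 ± 0.16 and -5.42 ± 0.32 (SD, n = 4).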

How the results depend on the processing

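No paired analysis was possible because all 4 arrays belong to a single group. The count of 29 detected genes was the same with the positive and significant flag, at least 2 arrays, every probe required and outlier spots kept, and 28 with naming by accession. It was 29 to 29 with a replicate left out. The 42 further lysosomal genes numbered 40 to 44 under these settings. Genes past the variance test numbered 0 in the main setting, 1 with normexp (Acp5), 2 with no filter on dim probes (Acp5 and Lgmn) and 0 under the other settings, and 0 to 0 when each replicate was dropped in turn. The cause was not tested. The median SD was 0.46 with spike-in scaling and ran from 0.098 to 0.14 when single replicates were dropped. Median deviations on replicates 1 to 4 were 0.39, 0.36, -0.20 and -0.56 with spike-in scaling (the spike-in probes exceeded the 75th percentile by 2.82, 2.84, 3.42 and 3.81), and -0.0396 on replicate 3 with quantile normalization. Dropping single replicates gave -0.0336 to -0.0085, -0.0537 to -0.0056, -0.0322 to 0.0217 and 0.0347 to 0.0496. Without replicate 4 the range of Lgmn fell to 1.29-fold. Mean levels stayed within 1 SD for all 29 genes with quantile and with outlier spots kept, and for 13 with normexp. Scaling on the detected median could not change a gene's mean, because its shifts cancel over the 4 arrays. Galc, Galns and Sgsh lie nearest to background, so their spread is the least certain.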
